A study of Mus musculus with 2 samples.

Results

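The immediate early factors of the AP-1 and EGR families were examined in epididymal white adipose tissue, the fat pad beside the epididymis, of mice on 2 diets. They comprise 10 of the 18193 genes that the array names by a single symbol: the Fos family genes Fos and Fosb, the Jun family genes Jun, Junb and Jund, the related factor Atf3, the zinc finger genes Egr1, Egr2 and Egr3, and Ier2. Every probe set (a group of short probes for one transcript) annotated with one of these symbols alone was taken, which gave 14 probe sets. The chow sample came from a male C57BL/6 mouse on a normal chow diet, and the other from a male C57BL/6 mouse that had eaten a high-fat diet for 7 weeks; per the labels, diets began at 9 weeks of age. Each diet had 1 array, so no test of the diet was possible, no spread between animals is known, and a gene called higher or lower here was so in these 2 samples. The sources used here do not give feeding state, time of day or handling at tissue collection. No length of the chow diet is recorded here, so whether the 2 mice were of the same age at collection is not known. The adipocyte genes Adipoq (intensities of 8372.1 for chow and 8718.4 for the high-fat diet) and Cidec (5143.1 and 6193.4) were bright on both arrays, as the tissue label says.

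Immediate early genes are transcribed within minutes of a stimulus such as a growth factor, insulin or stress, without new protein synthesis, and their transcripts are short-lived. Kinase cascades reach their promoters through serum response factor with its ETS partners and through CREB, the factor of cyclic AMP signalling. FOS and JUN proteins pair through leucine zippers to form AP-1, while EGR proteins bind GC-rich sites through zinc fingers and are restrained by NAB corepressors. In fat, EGR2 (also called Krox20) is known as an early promoter of adipocyte differentiation and EGR1 as a repressor of lipolysis genes.

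RefSeq promoter windows (250 bases before to 50 after the start, GRCm38.p6) were used for 7 of the 10 genes, and none was used for Egr1, Egr3 and Ier2. The windows of Fos, the best-known partner of the Jun proteins in AP-1, and of Junb and Egr2, which of the 7 genes differed most between the diets in each direction, are shown 5′ to 3′ on the gene's strand. Capitals mark the short form of the cyclic AMP response element (TGACG or its reverse complement) and the core of the serum response element.
Fos, chr12:85473640-85473939, plus strand: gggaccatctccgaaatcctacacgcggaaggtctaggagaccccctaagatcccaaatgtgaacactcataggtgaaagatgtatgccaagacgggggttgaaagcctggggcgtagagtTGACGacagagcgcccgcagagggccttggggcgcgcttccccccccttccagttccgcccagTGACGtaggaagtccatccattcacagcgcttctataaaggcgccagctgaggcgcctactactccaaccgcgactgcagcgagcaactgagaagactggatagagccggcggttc
Junb, chr8:84978699-84978998, minus strand: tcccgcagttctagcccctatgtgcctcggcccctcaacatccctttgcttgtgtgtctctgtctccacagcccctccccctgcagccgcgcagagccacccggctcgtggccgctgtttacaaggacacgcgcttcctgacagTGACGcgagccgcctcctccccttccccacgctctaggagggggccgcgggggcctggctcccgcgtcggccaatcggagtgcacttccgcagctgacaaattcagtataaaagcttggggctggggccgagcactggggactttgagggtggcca
Egr2, chr10:67537619-67537918, plus strand: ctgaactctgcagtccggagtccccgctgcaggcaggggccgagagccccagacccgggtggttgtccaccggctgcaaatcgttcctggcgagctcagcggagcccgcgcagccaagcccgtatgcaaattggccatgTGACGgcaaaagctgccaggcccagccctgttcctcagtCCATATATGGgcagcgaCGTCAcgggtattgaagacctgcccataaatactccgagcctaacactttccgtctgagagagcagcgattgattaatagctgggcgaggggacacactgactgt

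On both strands, this short element TGACG was found in windows of 5 of the 7 genes (Fos, Fosb, Junb, Atf3 and Egr2), against 23.0% of all 27025 genes with a window (20.8% of the 32851 windows, of which Egr2 has 5). The Fos window holds it at bases -129 to -125 and -66 to -62 from the start, and the Junb window at -106 to -102. The Egr2 window holds the serum response element core at -72 to -63, between short elements at -111 to -107 and -55 to -51. Of the 7 genes searched, only Egr2 had such a core in its windows, against 1.81% of all genes. Egr1, Egr3 and Ier2 were not searched, so whether they hold such a core is not known here. Sequence more than 250 bases before the start was not searched, so a gene without a match here may hold one further out. The EGR site GCGNGGGCG was found for Fosb alone of the 7, at -50 to -42, and for 6.27% of all genes. The full cyclic AMP response element TGACGTCA, which contains the short one, was found in none of the 7 genes and 2.03% of all genes. The AP-1 pattern TGANTCA was also found for none of the 7, against 8.97% of all genes. Longer AP-1 sites were not searched. The Jun window holds TGACATCA, a longer stretch that this pattern cannot match. G and C made up 58.7% to 68.3% of the windows of Fos, Fosb, Junb and Atf3. The figure was 56.0% to 72.0% for the Egr2 windows, 60.0% for Jun and 46.7% for Jund. The median over all windows was 52.7%, and the shares of genes with a motif were not adjusted for this. Genes with the short element differed between the diets in both directions, with Fos, Fosb and Egr2 higher and Junb and Atf3 lower, as given next.

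None of the 10 genes differed by 2-fold between the arrays, where 1.16% of the 14066 measured genes were 2-fold or more higher on the high-fat diet and 1.33% were 2-fold or more lower. At 1.5-fold, Egr3 was higher and Junb lower, 1 gene of 10 in each direction, against 5.74% of measured genes higher and 6.33% lower. A gene counted as measured where it reached a floor for weak signal on at least 1 array; the floor was each array's 40th percentile, 28.6 for chow and 27.9 for the high-fat diet, and lower values were raised to it. All 10 genes were measured, 9 of them on both arrays. Of the 10, 6 were higher and 4 lower (5 and 5 when the arrays were centred on reference genes), with a median log2 difference (high-fat diet minus chow) of 0.10, beside -0.02 over all measured genes. The differences ran from -0.65 for Junb to 0.66 for Egr3. As a yardstick of probe error, the diet differences of single probe sets scattered around the mean of their gene with a pooled SD of 0.375 log2 units for genes with a mean intensity under 100, 0.289 from 100 to 400 and 0.205 above 400. This SD covers probe error and no difference between animals. No gene of the 10 differed by more than 1.75 of these SDs.

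**Figure D1:**
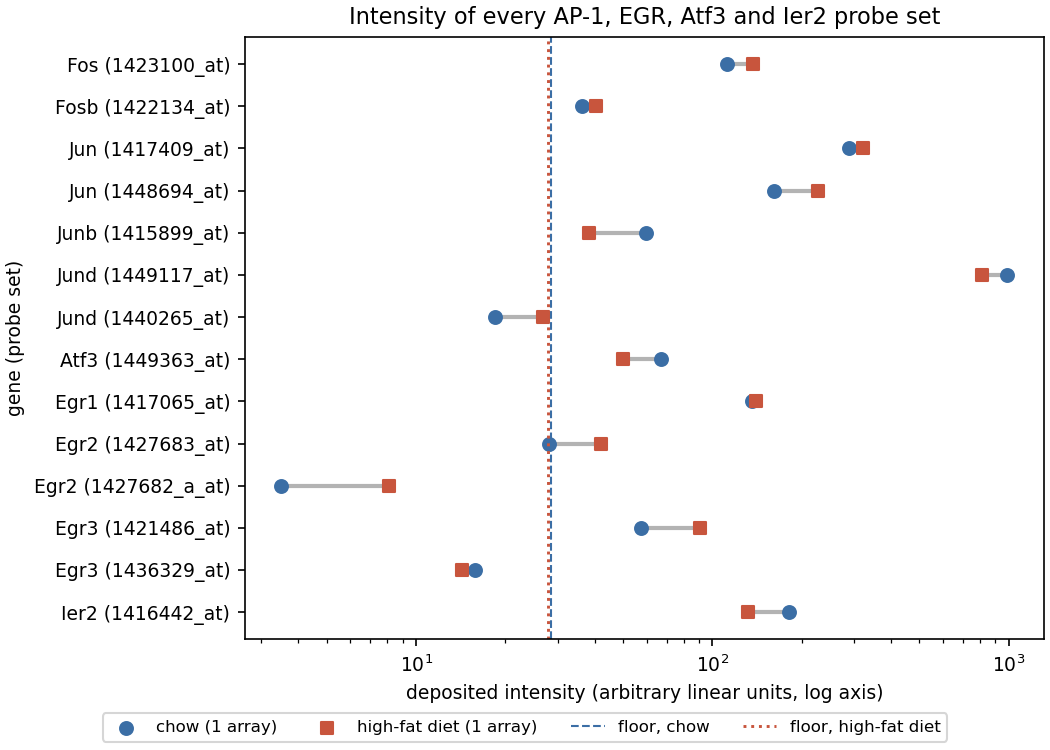
Deposited intensity of all 14 probe sets on the chow array (circles) and the high-fat diet array (squares), on a log axis, with each array's floor as a vertical line. Of the 14 probe sets, 10 lie above the floor on both arrays, 1 (Egr2) on the high-fat diet array only, and 3 on neither.

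The 3 EGR genes were higher on the high-fat array by unequal amounts, although Egr1 was lower with reference gene centring. Egr3, a zinc finger factor induced by growth signals, had an intensity of 57.6 in the chow sample and 90.7 in the high-fat sample, or 1.57-fold more (log2 difference 0.66), the largest increase of the 10. It was under 1.5-fold with reference gene centring (0.56) and with a pseudocount of 16 in place of the floor (0.54). Among measured genes, 4.37% were at least as far up, and 6.23% of the 6592 with a mean intensity under 100. Its other probe set, at 15.8 and 14.3, lay below the floor on both arrays and gave no difference. Egr2 stood at 28 in the chow sample, just under the floor of 28.6, and at 42.2 in the high-fat sample, so its value is a bound of at least 1.48-fold higher. The deposited intensities themselves stood 50.7% apart. The other Egr2 probe set was at 3.5 and 8.1, below the floor on both arrays. Egr1, the best-studied member, stood at 135.6 and 140.8, a log2 difference of 0.05. Reference gene centring turned this to -0.04, a scaling that moved the median of all measured genes from -0.02 to -0.12. Egr2 and Egr3 stood 1.5 and 1.75 probe SDs from 0 and Egr1 0.188, and whether the 3 genes differ from each other was not tested. The median of the 3 was 0.56.

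Egr4, the remaining EGR gene, did not share this direction, at 65.2 in the chow sample and 59.2 in the high-fat sample (-0.14). The NAB corepressors that restrain EGR proteins were close to level. Nab2 was at 117.7 and 102.2 (-0.20), and Nab1 at 452.2 and 463.6 (0.04).

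The Fos and Jun families split. Fos was measured at 112.3 in the chow sample and 136.8 in the high-fat sample, a log2 difference of 0.29 (1.22-fold), or 0.985 of a probe SD. Fosb, its closest relative, was near the floor on both arrays, at 36.4 and 40.5 (0.15). Jun was the only one of the 10 genes with 2 measured probe sets. The brighter gave 289.5 and 323 (0.16) and the other 161.9 and 227.2 (0.49), so both were higher in the high-fat sample, and their mean difference was 0.32. Fos, Fosb and Jun shared this direction, each by less than 1 probe SD in the probe set used.

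Junb and Jund, which encode Jun proteins that can temper the activity of JUN, went the other way. Junb stood at 59.9 in the chow sample and 38.3 in the high-fat sample, 1.56-fold lower (-0.65) and the largest decrease of the 10. With a pseudocount of 16 it was under 1.5-fold (-0.48), and with the floor at the 60th percentile it was not measured. Among measured genes 5.02% were at least as far down, and 7.77% of those with a mean intensity under 100. Jund, a Jun gene expressed constitutively in many cell types, was at 990.6 and 811.9, a difference of -0.29 or 1.4 probe SDs. It was bright enough for the smallest probe SD, and 10.5% of the 2007 genes above 400 were at least as far down. Its second probe set, at 18.5 and 26.9, was below the floor on both arrays. The 5 genes of the Fos and Jun families had a median difference of 0.15, with 3 higher and 2 lower.

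Atf3, a stress-induced factor that pairs with JUN proteins and mostly represses, was lower, at 67 and 49.8 (-0.43, 1.35-fold). With the floor at the 60th percentile this shrank to -0.19. Ier2, an early response gene that encodes a nuclear protein, was also lower, from 181.6 to 131.7 (-0.46, 1.38-fold, 1.6 probe SDs). In the class of 100 to 400, 7.59% of 5467 genes were at least as far down.

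**Figure D2:**
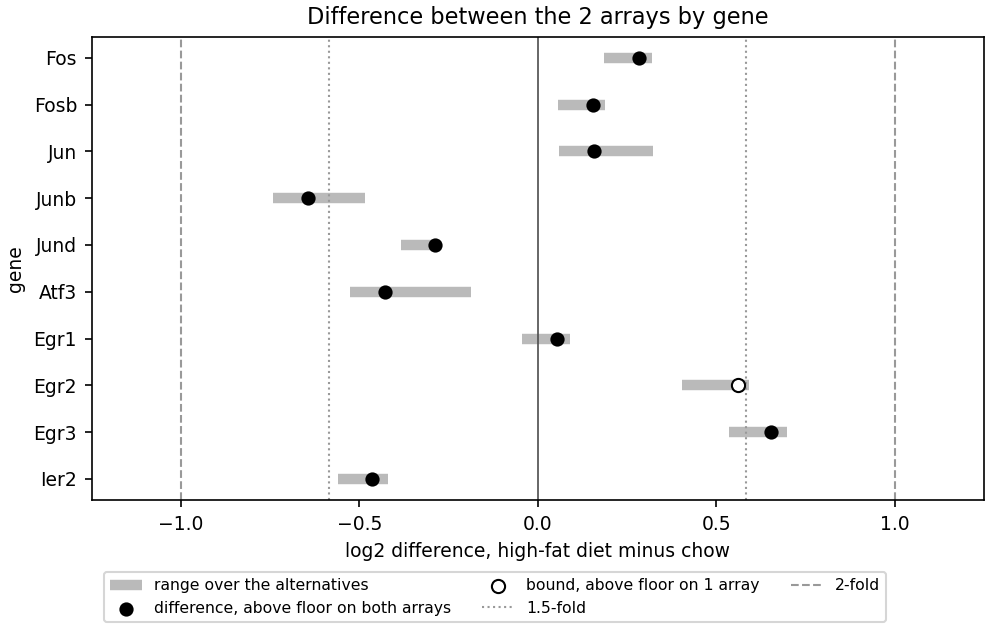
Log2 difference between the high-fat diet and chow arrays for each gene (filled points; the open point is the bound for Egr2), with the range over the processing alternatives as grey bars. All points lie inside the 2-fold lines, Egr3 and Junb lie just past the 1.5-fold lines, and only the bar of Egr1 crosses 0 (with reference gene centring).

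**Figure D3:**
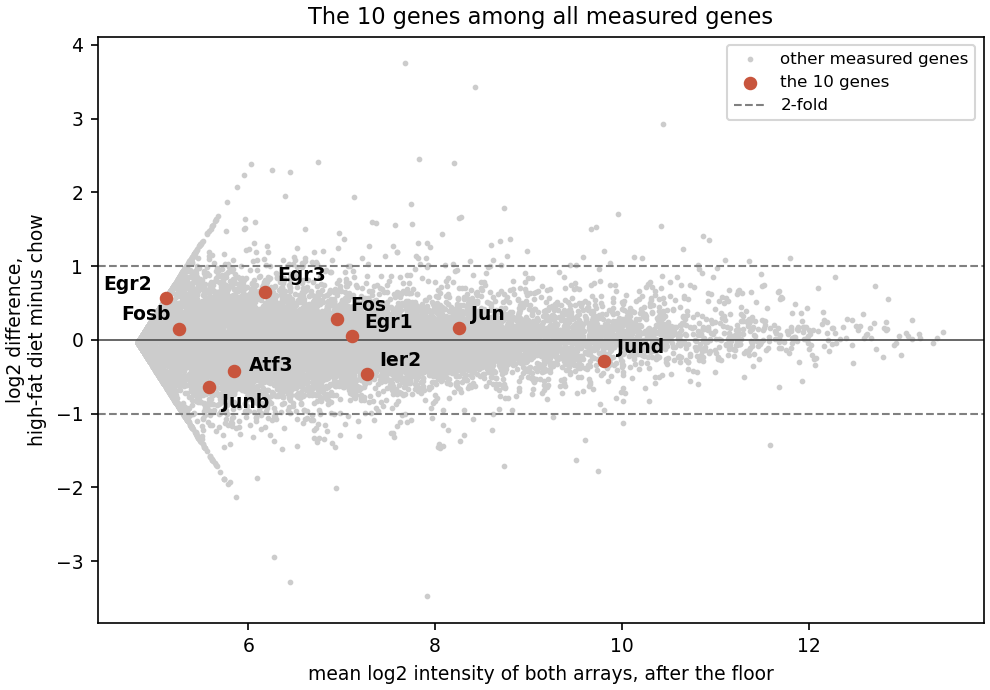
Log2 difference against mean log2 intensity for the 14066 measured genes (grey) and the 10 genes (red, named). All 10 lie within the cloud of other genes of their brightness; the 2 straight edges at the left are genes above the floor on 1 array only.

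The genes around these factors in the same response were described from lists of 113 genes, 95 of them measured. Of the 95, 37 were higher and 58 (61.1%) lower on the high-fat diet, beside 52.9% lower over all measured genes. At 1.5-fold or more, 3 (3.16%) were higher and 11 (11.6%) lower, beside 5.74% and 6.33% over all measured genes. The median difference of the 95 was -0.10, beside -0.02.

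Among other immediate and delayed early genes, 11 of 33 measured genes were higher and 22 lower, with a median of -0.13. At 1.5-fold, 1 was higher and 4 were lower. Ccn1, a matrix-associated early gene, was higher, at 110.5 in the chow and 184.2 in the high-fat sample (0.74), and its other probe set differed by 1.15. Errfi1, a feedback inhibitor of the EGF receptor, was 2.23-fold lower, from 406.1 to 182.1, although its other probe set differed by only -0.42. Nfkbiz, an inducible cofactor of NF-kB, was 1.86-fold lower, from 96.3 to 51.7, and another probe set differed by -0.63. Its remaining one, at 38.2 in the chow sample and below the floor at 12 in the high-fat sample, was at least 1.37-fold lower. Myc was at 48.9 and 30.4 (-0.69), the latter near the floor. Nr4a1, an orphan nuclear receptor induced with Fos and Egr1, was at 121 and 76.3 (-0.67). These lower genes shared the direction of Junb, Jund, Atf3 and Ier2, and Ccn1 that of Fos, Fosb, Jun and the EGR genes. Dusp1, a phosphatase that shuts off the MAP kinases, was at 483.2 and 514.1, a difference of 0.09.

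Of 12 measured other AP-1 and related zipper genes, 4 were higher and 8 lower, with a median of -0.11. Batf2 passed the floor in the high-fat sample alone, at 23.8 and 89.1, at least 3.12-fold higher. Batf3, a factor of dendritic cell development, passed it in the chow sample alone, at 76.2 and 14.6, at least 2.73-fold lower. Both BATF genes were thus weak on one array and had no second measured probe set. Fosl2, which encodes the Fos relative FRA-2, was 1.61-fold lower in its brighter probe set, from 220.3 to 136.7, but its other probe set differed by 0.03, and the probe sets therefore give no common direction.

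The kinases and promoter factors upstream were mostly close to level, with 8 of 19 measured genes higher, 11 lower and a median of -0.06. Mrtfa, a coactivator of serum response factor, was the only one past 1.5-fold, 1.70-fold lower from 120.2 to 70.7. Srf, serum response factor itself, was at 125.7 and 106.2 (-0.24). Among 11 feedback inhibitors and mRNA decay factors, 3 were higher and 8 lower, with a median of -0.13. The smallest of the 3 increases was only 0.001 log2 units. Dusp4, a nuclear MAP kinase phosphatase, was 1.61-fold lower, from 93.8 to 58.4. Spred1, an inhibitor of the Ras pathway, was 1.51-fold lower in its brightest probe set, but of its 6 other measured probe sets 4 were lower and 2 higher, 1 of them by 1.78-fold, so they give no common direction.

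Genes known as targets of AP-1 or EGR1 did not share a direction. Of 10 measured AP-1 targets, 5 were higher and 5 lower, with a median of -0.01; Mmp9, a gelatinase, was the only one past 1.5-fold, 2.51-fold lower from 164.9 to 65.6, and its other probe set, at 38.6 and below the floor at 22.6, was at least 1.38-fold lower. Of 7 measured EGR1 targets, 5 were higher and 2 lower, with a median of 0.08. Thbs1, thrombospondin, was 5.26-fold higher, from 128.6 to 676.5, and F3, tissue factor, was 1.57-fold lower, from 142.4 to 90.6. Pnpla2, the triglyceride lipase that EGR1 represses, was at 4720.2 and 4720.5, so it is among the 5 counted as higher although it was level.

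**Figure D4:**
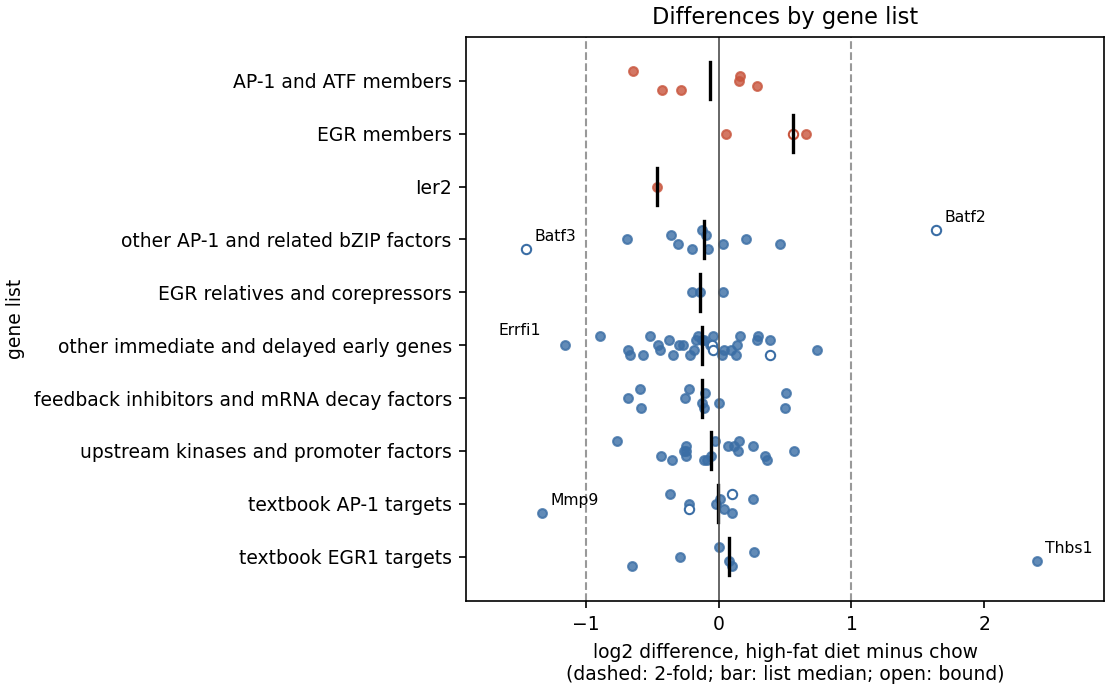
Log2 difference (high-fat diet minus chow) of each measured gene by list, with the 10 genes in red, the surrounding lists in blue, list medians as bars and bounds as open circles. The 3 EGR genes lie to the right of 0 (Egr1 to the left with reference gene centring), the surrounding early gene list has a median of -0.13, and the genes past 2-fold are named.

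In a bulk fat pad, fewer cells of a type and less RNA per cell cannot be told apart. Of 6 mesothelial markers (cells of the pad's lining), 5 were lower on the high-fat diet, 4 of them by 1.5-fold or more. Their summed intensity was 1372.6 for chow and 918.3 for the high-fat diet. The 6 markers ran from -0.99 (Krt19) to 0.45 (Msln). Smooth muscle and pericyte markers were lower in 4 of 5 cases, from -1.07 (Myh11) to 0.34 (Acta2), with sums of 4794.5 and 4721.9. Of 6 macrophage markers 3 were higher and 3 lower, from -0.54 (Cd163) to 0.22 (Cd68), with sums of 3529.9 and 3333.7. Of 6 endothelial markers 4 were higher, from -0.43 (Emcn) to 0.30 (Cldn5), with sums of 1695.1 and 1761.8. Of 6 fibroblast and progenitor markers 4 were higher, from -0.66 (Pdgfra) to 0.74 (Col1a1), with sums of 9357.2 and 9497.1. Of 5 neutrophil markers 3 were higher and 2 lower, with sums of 266.1 and 409.2. S100a8 was at 39.7 and 191.3 (2.27), while its partner S100a9 was at 32.9 and, below the floor, 3.5. Adipocyte markers were higher in 4 of 5 cases, from -0.07 (Retn) to 0.63 (Lep). T cell markers were higher in 2 of 3 cases, B cell markers in 1 of 3, red blood cell markers in 1 of 2, epididymis markers in 1 of 2 and skeletal muscle markers in 1 of 3. Their part in the differences above was not tested.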

How the data were processed

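Total RNA of 2 fat pads was hybridised to 1 Affymetrix mouse array each, per the labels' protocols. The deposited table gives a linear intensity per probe set for 45037 probe sets; the sources used here do not give the authors' summary method or scaling. Trimmed means (2% at each end) were 99.6 on both arrays, and the medians of log2 intensity differed by -0.03, under the limit of 0.1 for centring, so the deposited values were used as they are. Names came from the array's 2016 annotation, and a gene was shown by its measured probe set of highest mean log2 intensity before the floor. The number of arrays limits the precision. All 10 factors were named. In the surrounding lists genes were named by size, at most 6 a list. These were genes above the floor on both arrays that differed by 1.5-fold or more, or with a bound of 2-fold or more. For the main marker lists, counts and extremes were given. Adipoq, Cidec, Egr4, Nab1, Nab2, Dusp1, Srf, Pnpla2, S100a8 and S100a9 were added after their values were seen. The genes and lists were chosen with earlier results of these data known. Values were recomputed under 9 alternatives of floor, scaling and probe set. The code was tested on simulated data. The deposited values held no Affymetrix control probe sets, so the planned check of RNA quality was not possible. The RNA quality of the 2 arrays is not known. Python 3.11.15, numpy 2.4.6, pandas 2.3.3 and statsmodels 0.14.6 were used.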

Additional observations from a re-analysis of the deposited data

How the results depend on the processing

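Neither diet has a replicate, so the alternatives show how far each value depends on the processing and nothing about animals. Of 282 recomputed values, 269 moved by less than the probe SD (for counts, by 1.5 times or less) and 13 moved further. Of those past 1.5-fold, 0 changed sign, and among the 10 genes this check covered Egr3 and Junb alone. Smaller values could change sign without counting as moved. The median of the EGR1 targets went from 0.08 to -0.02 with reference gene centring. That of the upstream kinases and promoter factors went from -0.06 to 0.05 with the probe set of smallest difference. Of the 10 genes, 9 kept their direction in every alternative that measured them. Only Jun had 2 measured probe sets, so the choice of probe set could not change the values of the others. A changed floor altered only genes near it. Egr1 was lower, at -0.04, with centring on the reference genes. The count of the 10 genes at 1.5-fold or more higher was 2 with the floor at the 20th percentile, with quantile normalization and with lowess centring, where Egr2 joined Egr3, and 0 with a pseudocount of 16 in place of the floor and with reference gene centring. The count at 1.5-fold or more lower was 0 with the floor at the 60th percentile, which left 7 genes measured and Junb below it, and with the pseudocount of 16. No gene of the 10 reached 2-fold in any of the 9 alternatives. Egr3 ranged from 0.54 to 0.70 and Junb from -0.74 to -0.48. Centring on the reference genes turned the split of all measured genes at 1.5-fold from 808 higher and 890 lower to 552 and 1342. With the floor at the 20th percentile there were 598 genes at 2-fold or more higher and 713 lower, and with the 60th 88 and 65, against 163 and 187. The median of the smooth muscle and pericyte markers moved to -0.55 with the floor at the 20th percentile and with plain probe sets, that of the mesothelial markers to -0.35 with plain probe sets, that of the T cell markers to -0.13 with the mean of probe sets and -0.21 with plain probe sets, and that of the neutrophil markers to 0.44 with the floor at the 60th percentile. The cause of these moves was not tested. No paired analysis was possible because each diet has 1 array. Signals near the floor, those of Fosb, Egr2 and Junb, limit what these arrays can show for the weakest genes.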

Other observations

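Junb and Ier2, both lower on the high-fat diet, lie on the same chromosome with 17 protein-coding genes between them in the RefSeq gene order. Of these genes 15 were measured, and 13 of the 15 were lower on the high-fat diet and 2 higher, with a median log2 difference of -0.15 and a range from -1.7 to 0.20. Over all measured genes 52.9% were lower. The stretch was looked at after the values of both genes were seen, and no test of it was made.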
